A study of Homo sapiens with 6 samples.

Results

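The 44 genes described here encode the enzymes that build cholesterol and fatty acids, the proteins that control them, and a few proteins that activate, bind or import fatty acids. They were chosen by gene name, as listed members of these pathways whose values averaged 1 or more across the 6 libraries, and the rule used no difference between groups. All 44 were among the 27394 genes of the deposited table, and all 44 passed the filter on low values. They comprise 18 sterol enzymes, 17 fatty acid enzymes, 6 genes of sterol regulatory element binding protein (SREBP) control and sterol transport, and 3 genes of fatty acid uptake, binding and mitochondrial import. PANC-1, an established human pancreatic cancer cell line grown in serum-containing medium, carried a control shRNA (shControl, 3 libraries) or an shRNA against ZDHHC20 (shZDHHC20, 3 libraries), and no other difference between the groups is labelled. ZDHHC20 is a palmitoyl acyltransferase, an enzyme that attaches palmitate to proteins. Directional Illumina RNA-seq libraries were made from total RNA, and the values are called normalized counts here, since each library's values are whole multiples of 1 step of its own. The labels state neither the hairpin sequence nor whether replicates came from separate cultures or infections, so p-values measure the spread between these samples, which may be technical.

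Cells make cholesterol from acetyl-CoA by way of mevalonate, isopentenyl diphosphate and squalene, and they make palmitate from acetyl-CoA by carboxylation to malonyl-CoA and repeated condensation on fatty acid synthase. Palmitate is then elongated, desaturated and joined to coenzyme A for use in lipids, and palmitoyl-CoA is also the donor that palmitoyl acyltransferases use. Both branches are controlled by the SREBP transcription factors, which the escort protein SCAP carries from the endoplasmic reticulum to the Golgi for cleavage and which the INSIG proteins hold back when sterols are plentiful.

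ZDHHC20 itself, on chromosome 13, had normalized counts of 2001, 2033 and 1940.4 in shControl replicates 1, 2 and 3 and of 872, 779 and 893 in the corresponding shZDHHC20 libraries. The mean fell to 42.6% of control, a log2 fold change of -1.23 ± 0.0649 (SE, n = 3 per group, limma adjusted p = 4.36e-07). The deposited values summed to between 17083300 and 18007700 per library, and the libraries' depths relative to each other lay between 93.1% and 103.5% of their mean. With 1 step read as 1 counted read, the totals were 16575500 to 18441000. One library stood apart: over the 4136 genes that averaged 1000 or more, the SD of log2 differences was 0.178 and 0.198 between shZDHHC20 replicate 2 and the other two shZDHHC20 libraries, against 0.0674 to 0.0722 for every other pair within a group. Mitochondrially encoded genes held 4.01% of the values in that library and 5.28% to 5.52% in the others. Keratin and vimentin genes, known from this line, were abundant, with control means of 56187 for KRT8 and 21163 for VIM. Of 7 markers of the line, 2 rose in shZDHHC20 and 0 fell (2 lower at an unadjusted p under 0.05, limma): EPCAM, from 72.4 ± 20.5 to 525 ± 43.7 (SD, n = 3, log2 fold change 2.89, adjusted p = 6.70e-07), and CDH1, from 287 ± 12.8 to 629 ± 54.0 (log2 fold change 1.13, adjusted p = 6.62e-06). Their part in the results on lipid genes was not tested. Markers of other cells were near 0: the summed level per library was 6.01 to 6.06 in shControl and 15.4 to 26.5 in shZDHHC20 for acinar markers (2 of 6 in the table), and at most 6.36 for islet (1 of 4), 7.42 for immune (2 of 4), 18.3 for fibroblast and endothelial (4 of 6) and 21.2 for hepatocyte and adipocyte markers (3 of 4).

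The promoter of SCD, the most abundant member, is printed first, with the CCAAT box, the motif bound by the NF-Y factor, in capitals. It is the RefSeq window from 250 bases before to 50 bases after the start, at chr10:100346983-100347282 of GRCh38.p14, plus strand.
SCD: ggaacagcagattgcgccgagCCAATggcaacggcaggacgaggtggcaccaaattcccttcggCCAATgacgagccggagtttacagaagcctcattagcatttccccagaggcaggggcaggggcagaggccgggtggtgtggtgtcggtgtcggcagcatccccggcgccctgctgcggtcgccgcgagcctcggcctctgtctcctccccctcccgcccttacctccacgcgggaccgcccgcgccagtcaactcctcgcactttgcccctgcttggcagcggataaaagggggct

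Shorter windows of 30 bases show the same box on either strand (CCAAT, or ATTGG when read from the other strand) in DHCR7 and TM7SF2, both sterol enzymes called lower, and in HMGCS1, a sterol enzyme that was not called. The SREBF2 window holds the sterol regulatory element TCACNCCAC, to which SREBPs bind. DHCR7 and HMGCS1 lie on the minus strand and are written in the gene's direction.
DHCR7, chr11:71448471-71448500: tcaggctcctcgaCCAATcacggggcgcgg
DHCR7, chr11:71448425-71448454: gggtccgcctccgATTGGcaggcaatcgct
TM7SF2, chr11:65111785-65111814: cccccgagcgccgATTGGctggtgtgctgg
HMGCS1, chr5:43313496-43313525: tctaccggccgcgATTGGctgtgggagcca
SREBF2, chr22:41832961-41832990: atgacgcgccaTCACCCCACgcaccgcttc

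RefSeq promoter windows matched 39 of the 44 genes. A CCAAT box on either strand was present in 28 of the 39 genes (71.8%), against 39.7% of 27305 genes with a window. It was found in 13 of 15 sterol enzymes (86.7%) and in 11 of 16 fatty acid enzymes. Of the members whose RNA was called lower, 5 of 11 with a window held it, and of those not called, 23 of 28 did. The element TCACNCCAC, searched on both strands, was in 2 of the 39 genes (5.13%), SREBF2 and ACSL1, against 1.39% of all genes. The E-box CACGTG was in 5 of the 39 (12.8%), against 8.77% of all. These matches describe letters in the windows and not binding.

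The comparison of shZDHHC20 with shControl asks how RNA of these genes differed after ZDHHC20 silencing. In the shZDHHC20 libraries 13 of the 44 genes fell and 0 rose (limma on log2 of the value plus 0.1, two-sided, adjusted p under 0.05 over 22189 genes). Over all genes tested, 6.84% were called lower and 4.61% higher, 11.5% in all. The 2 members with an unadjusted p under 0.05 in the upward direction were ELOVL1 and SREBF1. As 41 of the members averaged 100 or more, and abundant genes were called more often, the nearer background is the 10908 genes of that abundance, of which 13.3% were called lower and 21.7% called in all. All 13 members called lower were among the 41. Their means lay between 67.6% and 86.4% of control, so each decrease was modest in size. The median log2 fold change was -0.12 over the 44 members and 0.01 over all genes tested. In 19 members all shZDHHC20 libraries lay below all shControl libraries, as they did in 14.8% of all genes. Among the 10908 genes that averaged 100 or more, 2603 did so. In 3 members all shZDHHC20 libraries lay above, as in 2046 of those 10908 genes. The groups thus did not overlap in 22 of the 44 members, against 28.6% of all genes. They did overlap in 6259 of the 10908 genes of the nearer background, so the members' contrast with that background was smaller. In bulk libraries, fewer cells of a kind and less RNA per cell cannot be told apart. The calls depended on the mean-variance trend of the fit: without it 0 of the 44 passed (limma adjusted p of 0.0747 to 0.284 for the 13, with 13 members lower and 1 higher at an unadjusted p under 0.05), and only 351 genes passed in the whole table. Without the trend but among genes averaging 100 or more, 12 members were lower, 10 of them among the 13.

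**Figure D1:**
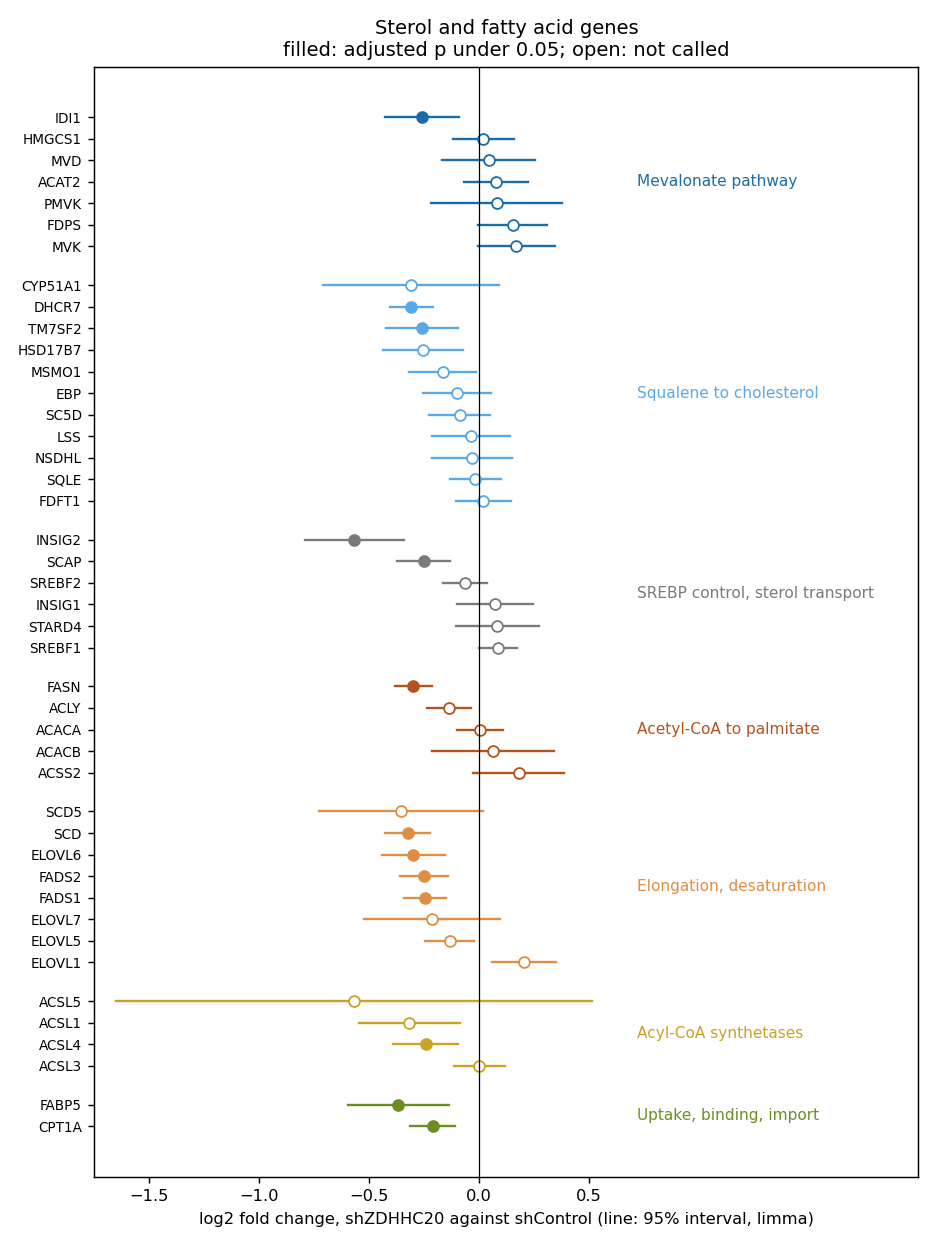
Log2 fold change of each member, shZDHHC20 against shControl, with its 95% interval from limma, grouped by pathway step; filled points have an adjusted p under 0.05. All 13 filled points lie left of 0, and 4 of them are elongases or desaturases. CD36, near 0 counts, is left out for its wide interval.

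Among the genes of SREBP control, 2 of 6 fell, 0 rose, and the median log2 fold change was 0.01. Of all genes that averaged 100 or more, 13.3% were called lower. INSIG2, which retains SCAP in the endoplasmic reticulum and lies at chr2:118088452-118110997 (GENCODE, GRCh38, plus strand), had normalized counts of 337, 353 and 314 in shControl and of 232, 201 and 246 in shZDHHC20. The groups did not overlap, and INSIG2 fell to 67.6% of control (log2 fold change -0.57 ± 0.104, SE, n = 3 per group, adjusted p = 0.00318), the lowest share among the members called. SCAP, the escort protein itself, had 1858, 1862 and 1988 in shControl and 1621, 1549 and 1624 in shZDHHC20 (log2 fold change -0.25 ± 0.0553, adjusted p = 0.00987). Every shZDHHC20 library was below every control library for SCAP too, although the adjusted p was 0.0510 without shControl replicate 1 and 0.0852 without shControl replicate 3, and 0.0686 after a correction for GC content.

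INSIG1, a paralogue of INSIG2 and itself a known SREBP target, had 1166, 1101 and 1138 in shControl and 1296, 1039.6 and 1264 in shZDHHC20 (log2 fold change 0.07, adjusted p = 0.635). The groups overlapped through shZDHHC20 replicate 2, the lowest of the 6, and without that library INSIG1 was higher (log2 fold change 0.17, adjusted p = 0.0243). The log2 ratio of INSIG1 to INSIG2 was 1.76 ± 0.109 (SD, n = 3) in shControl and 2.40 ± 0.0676 in shZDHHC20, a shift of 0.641 with no overlap between groups. Of 7 pairs examined, SREBF1 to SREBF2, ACSL3 to ACSL4 and ELOVL1 to ELOVL5 did not overlap either. For each of these the exact permutation p was 0.1, the smallest possible with 20 splits, and 0.175 after adjustment over the 7 pairs. SREBF1, which encodes the SREBP isoforms that act mainly on fatty acid genes, had 9698, 9583 and 9455 in shControl and 10053.7, 10308 and 10174 in shZDHHC20. All 3 shZDHHC20 values were above the controls, but the difference of 0.09 on the log2 scale (95% interval 0.000487 to 0.175) was not called (adjusted p = 0.207). It was called higher after quantile normalization (adjusted p = 0.0254) and without shZDHHC20 replicate 2 (adjusted p = 0.0347). SREBF1 shares exon bases on the opposite strand with RAI1 (control mean 3533). SREBF2, which encodes the isoform that acts mainly on sterol genes, had 4367, 4322 and 4175 against 4056, 4213 and 4039.9, with a log2 fold change of -0.06 (adjusted p = 0.452) and overlapping groups. STARD4, a sterol carrier protein, had means of 445 ± 41.1 (SD, n = 3) and 470.3 ± 22.3 (adjusted p = 0.620).

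In the sterol branch, 3 of the 18 enzymes fell (16.7%), 0 rose and the median log2 fold change was -0.03. All 18 averaged 100 or more, and 13.3% of all genes of that abundance were called lower, a share close to that of the branch. The 7 enzymes from acetyl-CoA to farnesyl diphosphate held 6 positive log2 fold changes and 1 negative, with a median of 0.08. Of the 10908 genes that averaged 100 or more, 5191 had a positive log2 fold change. HMGCS1, which makes HMG-CoA, had 856, 823 and 817 in shControl and 837, 876 and 816 in shZDHHC20. The groups overlapped, with a log2 fold change of 0.02 (95% interval -0.119 to 0.158, adjusted p = 0.899). IDI1, which interconverts the isoprenoid building blocks, was the called gene of this stretch, with 1136, 1238 and 1163 in shControl and 965, 893 and 1106 in shZDHHC20 (log2 fold change -0.26 ± 0.0783, adjusted p = 0.0482). That call was lost under most alternatives, with an adjusted p of 0.0613 to 0.221 when shControl replicate 1, 2 or 3 or shZDHHC20 replicate 1 or 2 was left out. ACAT2, MVK, PMVK, MVD and FDPS, which carry acetyl-CoA condensation, the mevalonate phosphorylations, decarboxylation and prenyl condensation, had log2 fold changes of 0.04 to 0.17 and adjusted p of 0.216 to 0.838. MVK was the gene of this stretch whose shZDHHC20 libraries (419, 431 and 428) were all above control (378, 398 and 360.4). ACAT2 and MVK share exon bases on the opposite strand with TCP1 (control mean 7166) and MMAB (309). The strand setting of the counting is not known, so some of their reads are uncertain. PMVK and MVD were high in 1 library only: shZDHHC20 replicate 2 had 557 for PMVK against 393 and 346 in the other two, and 957 for MVD against 760.0 and 721. Without that library the log2 fold changes of PMVK, MVD and HMGCS1 were negative (-0.12, -0.079 and -0.0087).

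From squalene to cholesterol, 2 of 11 enzymes fell (18.2%, against 13.3% of genes that averaged 100 or more). Of the 11 log2 fold changes 10 were negative, with a median of -0.10. Of the 10908 genes that averaged 100 or more, 5717 had a negative log2 fold change. Some of these enzymes close to 0 changed sign when 1 library was left out. SQLE, squalene epoxidase, had 1861, 1872 and 1863 in shControl and 1869.8, 1759.9 and 1908 in shZDHHC20, which overlapped (log2 fold change -0.02, 95% interval -0.132 to 0.10, adjusted p = 0.901). DHCR7, which catalyses the final reduction of 7-dehydrocholesterol and lies at chr11:71428193-71452868 (GENCODE, GRCh38, minus strand), had 4523, 4613 and 4438 in shControl and 3754, 3610.0 and 3603 in shZDHHC20. The shZDHHC20 values were all lower, and DHCR7 fell to 80.8% of control (log2 fold change -0.31 ± 0.0460, adjusted p = 0.000769). It kept its call without each library in turn (adjusted p at most 0.0167). TM7SF2, a sterol C14 reductase, had 1674, 1608 and 1670.0 in shControl and 1300, 1575 and 1279 in shZDHHC20 (log2 fold change -0.26 ± 0.0755, adjusted p = 0.0413). Its shZDHHC20 replicate 2 lay close to the control range, and the adjusted p was 0.129 to 0.207 when shControl replicate 1, 2 or 3 or shZDHHC20 replicate 1 or 3 was left out. TM7SF2 also shares exon bases on the same strand with VPS51 (control mean 1851), so reads of that pair could be split either way by the counting.

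Of the other late sterol enzymes, HSD17B7 (391 ± 13.3 to 328 ± 14.7, SD, n = 3, adjusted p = 0.0724) and MSMO1 (1347 ± 34.9 to 1204 ± 110.3, adjusted p = 0.169) had no overlap between groups and were not called. CYP51A1, lanosterol demethylase, was low and variable, at 114.6 ± 13.3 and 94.1 ± 23.9 (log2 fold change -0.31, adjusted p = 0.349). FDFT1, LSS, NSDHL, EBP and SC5D had log2 fold changes between -0.10 and 0.02 and adjusted p of 0.436 to 0.879. LSS and NSDHL had shZDHHC20 replicate 2 apart from the other two, at 2287 against 1846 and 1815 for LSS and 1040.6 against 821 and 861 for NSDHL. Without shZDHHC20 replicate 1 or 3 their log2 fold changes were positive (0.011 and 0.023 for LSS, 0.039 and 0.0044 for NSDHL). That of FDFT1 was -0.0064 without shControl replicate 2.

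The fatty acid branch had 6 of 17 enzymes lower (35.3%), 0 higher and a median log2 fold change of -0.24. Of the 17, 15 averaged 100 or more, and 13.3% of all genes of that abundance were called lower. FASN, fatty acid synthase, which makes palmitate and lies at chr17:82078333-82098332 (GENCODE, GRCh38, minus strand), had 18504, 18328 and 17990.0 in shControl and 14847, 14933 and 14807 in shZDHHC20. Both groups were tight, the values did not overlap, and FASN fell to 81.3% of control (log2 fold change -0.30 ± 0.0387, SE, n = 3 per group, adjusted p = 0.000270). Before it in the pathway, ACACA, the cytosolic acetyl-CoA carboxylase, had 2989, 3018 and 3081 against 2991, 3001 and 3132 (log2 fold change 0.01, 95% interval -0.0979 to 0.109, adjusted p = 0.967). The ACACA groups overlapped, and the interval does not reach the decrease measured for FASN. ACLY, ATP citrate lyase, had means of 4698 ± 87.6 (SD, n = 3) and 4279 ± 129.2 with no overlap, and was not called (log2 fold change -0.14, adjusted p = 0.0824). ACSS2, which makes acetyl-CoA from acetate, and ACACB, the mitochondrial carboxylase, had log2 fold changes of 0.18 and 0.06 (adjusted p = 0.280 and 0.820).

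Of the elongases and desaturases, 4 of 8 were lower and 0 higher, with 7 of 8 log2 fold changes negative. Of the 10908 genes that averaged 100 or more, 13.3% were called lower, and 5717 had a negative log2 fold change. SCD, stearoyl-CoA desaturase, which makes oleate and palmitoleate and lies at chr10:100347124-100364834 (GENCODE, GRCh38, plus strand), had 95039.5, 96757 and 97137 in shControl and 78963, 71397 and 80747 in shZDHHC20. No shZDHHC20 library reached the control range, and SCD fell to 80.0% of control (log2 fold change -0.32 ± 0.0472, adjusted p = 0.000639). After quantile normalization its log2 fold change was -0.12 and the call was lost (adjusted p = 0.0580). FADS1 and FADS2, the delta-5 and delta-6 desaturases of polyunsaturated fatty acids, lie next to each other on chromosome 11. FADS1 had 4724, 4816 and 4858 in shControl and 4007, 4114 and 4038 in shZDHHC20 (log2 fold change -0.24 ± 0.0443, adjusted p = 0.00303). FADS2 had 8693, 8515 and 8525 against 7096, 7724 and 6847 (log2 fold change -0.25 ± 0.0497, adjusted p = 0.00543). Neither gene's groups overlapped, and the log2 ratio of FADS1 to FADS2 was -0.838 ± 0.0368 (SD, n = 3) in shControl and -0.832 ± 0.0737 in shZDHHC20. The genes share exon bases on opposite strands, and the strand setting of the counting is not given in the sources used here, so these are not fully separate measurements. FADS2 also shares exon bases on the same strand with FEN1 (control mean 929). The adjusted p of FADS2 was 0.0640 without shControl replicate 1, 0.0562 without shControl replicate 3 and 0.0525 without shZDHHC20 replicate 1.

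ELOVL6, which extends palmitate to stearate, had 988, 1046 and 1062 in shControl and 868, 787 and 863 in shZDHHC20 (log2 fold change -0.30 ± 0.0667, adjusted p = 0.0107). All shZDHHC20 values were below control, and the adjusted p rose to 0.0708 and 0.0850 without shControl replicates 2 and 3. ELOVL1, which extends saturated chains to very long lengths, was the elongase with values above control, at 1420.0 ± 38.4 (SD, n = 3) and 1643 ± 149.1. Its log2 fold change of 0.21 was not called (adjusted p = 0.0686), though it was called higher with a filter at a mean of 10, with robust moderation and after the GC correction. ELOVL5, ELOVL7 and SCD5 had log2 fold changes of -0.13, -0.21 and -0.35 and adjusted p of 0.126, 0.411 and 0.231. Among the acyl-CoA synthetases, which activate fatty acids, 1 of 4 fell, against 13.3% of genes that averaged 100 or more. ACSL4, known for its preference for arachidonate, had 3263, 3437 and 3414 in shControl and 3011, 2514 and 3056 in shZDHHC20 (log2 fold change -0.24 ± 0.0690, adjusted p = 0.0376). The groups did not overlap, with shZDHHC20 replicate 2 the lowest, and the adjusted p was 0.0812 to 0.190 without shControl replicate 1, 2 or 3 or shZDHHC20 replicate 1. ACSL3, of similar abundance, had means of 3291 ± 84.3 and 3298 ± 180.4 (log2 fold change 0.00, adjusted p = 0.987). ACSL1 (277 ± 31.1 to 222 ± 6.50, log2 fold change -0.32) had no overlap and was not called (adjusted p = 0.0757), and ACSL5 was near 10 counts, at 11.1 ± 2.62 and 7.63 ± 2.58. ACSL5 shares exon bases on the opposite strand with ZDHHC6 (control mean 879), so its few reads are uncertain.

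**Figure D2:**
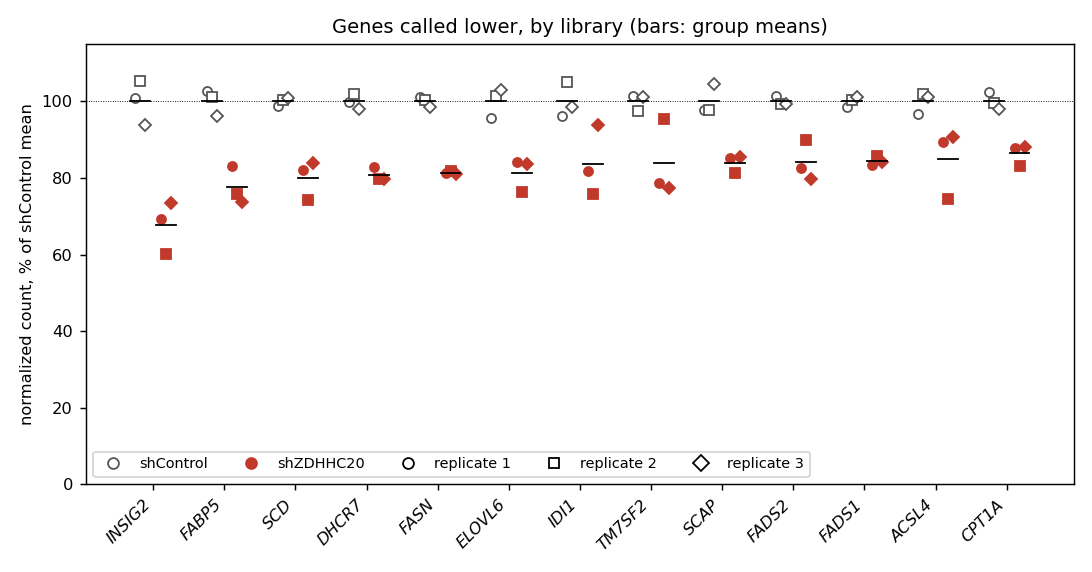
Normalized count of the 13 genes called lower, as a percentage of the shControl mean (y axis, from 0), for each library; open symbols are shControl, filled are shZDHHC20, the shape gives the replicate and bars are group means. Group means lie between 67.6% (INSIG2) and 86.4% (CPT1A) of control, and shZDHHC20 replicate 2 stands apart in TM7SF2 and ACSL4.

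Of the 3 genes of fatty acid use, CPT1A and FABP5 fell. Of all genes that averaged 100 or more, 13.3% were called lower. CPT1A, which commits long chains to mitochondrial oxidation, had 4481, 4352 and 4285 in shControl and 3836, 3641 and 3858 in shZDHHC20 (log2 fold change -0.21 ± 0.0474, adjusted p = 0.0111), without overlap. Its adjusted p was 0.0956, 0.0664 and 0.0593 without shControl replicates 1, 2 and 3. FABP5, a fatty acid binding protein, had 226, 223 and 212 in shControl and 183, 167 and 163 in shZDHHC20 (log2 fold change -0.37 ± 0.107, adjusted p = 0.0414), again without overlap. Its adjusted p was 0.0665 to 0.153 without shControl replicate 1, 2 or 3 or shZDHHC20 replicate 1 or 3. The processed pseudogene FABP5P7 held 10.6% as many counts as FABP5 in shControl, so a share of the FABP5 reads is uncertain. CD36, a fatty acid receptor, was at 0 to 4.24 in the 6 libraries and near the detection limit.

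Set side by side, the branches differed in the libraries that carried the decrease, a difference that was not tested. The median over the 18 sterol enzymes, as log2 minus the control mean, was -0.07, 0.05 and -0.11 in shZDHHC20 replicates 1, 2 and 3. Over the 17 fatty acid enzymes it was -0.19, -0.24 and -0.16, below all 3 control libraries (-0.03 to 0.02). The sterol median thus changed sign with shZDHHC20 replicate 2, the library that stood apart, and without that library it was -0.11 over the sterol enzymes and -0.16 over the fatty acid enzymes. The part of that library in the difference between branches was not tested.

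**Figure D3:**
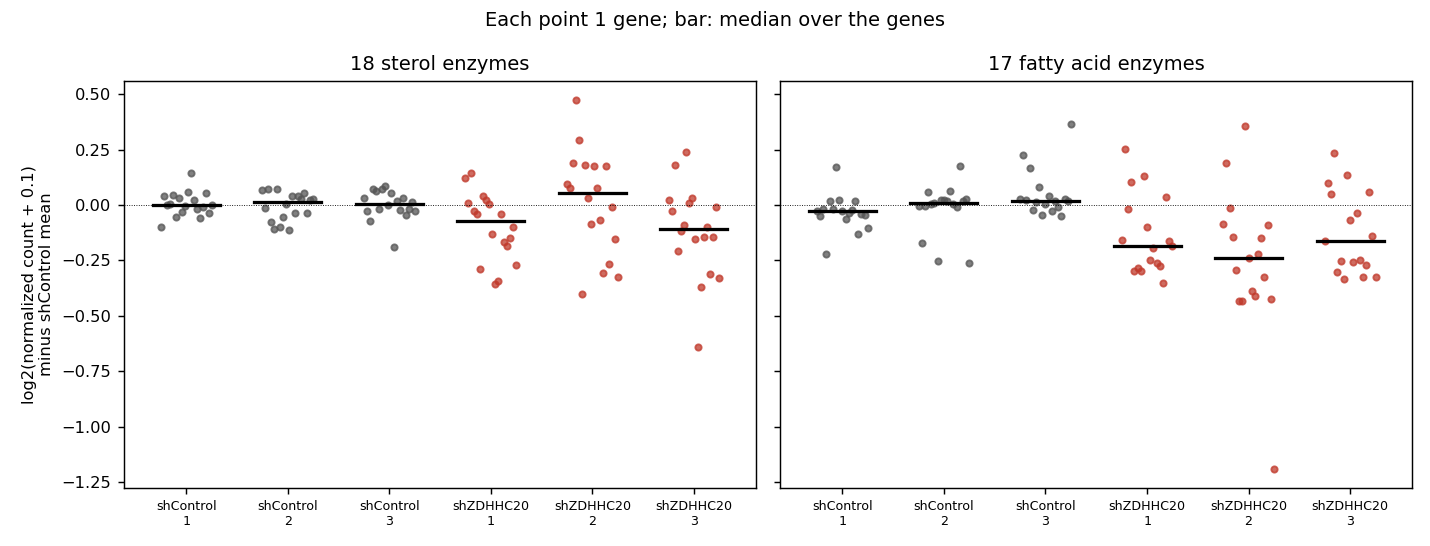
Log2 of the normalized count plus 0.1, minus the shControl mean of the gene, for each library (x axis); points are genes and bars are medians, for 18 sterol enzymes (left) and 17 fatty acid enzymes (right). The fatty acid medians of the shZDHHC20 libraries lie between -0.24 and -0.16, and the sterol medians between -0.11 and 0.05.

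Levels between genes can be compared per length of exon. On that scale (normalized counts per kb of exon, shControl mean) SCD reached 17962 and ranked 22 among the 10908 genes that averaged 100 or more. FASN at 1952, ELOVL5 at 1523, SREBF1 at 1193 and DHCR7 at 1088 followed, while HMGCS1 was at 177, INSIG2 at 84.8 and ACACB at 15.8. SCD alone held 48.9% to 49.5% of the summed normalized counts of the 44 members in the shControl libraries and 44.0% to 47.2% in the shZDHHC20 libraries. The sum over all members was 195554 ± 1127 (SD, n = 3) in shControl and 167384 ± 4616 in shZDHHC20, which is 85.6% of control. Leaving out SCD, it was 91.0% of control. The sterol enzymes summed to 93.3% of control and the fatty acid enzymes other than SCD to 87.6%. The totals of all genes were also lower, at 17083300 to 17746700 in shZDHHC20 against 17962400 to 18007700 in shControl. As mean shares of these totals, all members went from 1.088% to 0.958% and members without SCD from 0.552% to 0.517%. Sterol enzymes went from 0.119% to 0.114% and fatty acid enzymes without SCD from 0.309% to 0.279%.

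**Figure D4:**
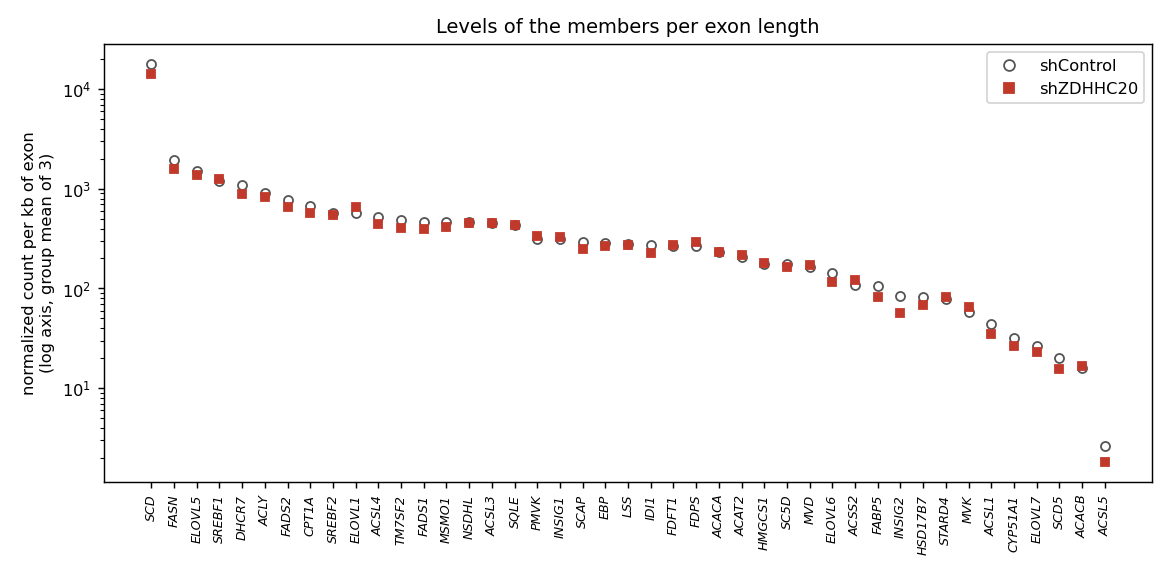
Normalized count per kb of exon (log axis), group mean of 3 libraries, for the members with more than 1 count per kb in shControl, in order of the shControl level; open circles are shControl and filled squares shZDHHC20. SCD, at 17962 per kb in shControl, lies far above FASN at 1952.

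Other lipid genes were read from lists of pathway members, and their counts are given as higher and lower with the same test. Over all genes tested, 4.61% were called higher and 6.84% lower. Of genes that averaged 100 or more, 8.41% were called higher and 13.3% lower. Among 16 further enzymes of fatty acid chain synthesis, 7 were lower and 0 higher (median log2 fold change -0.25). CYB5A, cytochrome b5, the electron donor of the desaturases, fell by 0.60 on the log2 scale (adjusted p = 0.000404). TECR and HACD2, the reductase and a dehydratase of the elongation cycle, fell by 0.33 (adjusted p = 0.00203) and 0.26 (adjusted p = 0.0114). Among 23 genes of glycerolipid synthesis and lipid droplets, 7 were lower and 1 higher (median -0.15), led by PNPLA2, the adipose triglyceride lipase (-0.40, adjusted p = 0.000121), DGAT2, which makes triacylglycerol (-0.69, adjusted p = 0.000285), and AGPAT5, a lysophospholipid acyltransferase (-0.44, adjusted p = 0.000933). Among 16 further genes of fatty acid uptake and activation, 2 were lower and 0 higher: SLC27A1, a fatty acid transport protein (-0.67, adjusted p = 0.000429), and ACSS1, the mitochondrial acetyl-CoA synthetase (-0.42, adjusted p = 0.00685). Of 24 fatty acid oxidation genes 0 were lower and 1 was higher, the carnitine-acylcarnitine carrier SLC25A20 (0.34, adjusted p = 0.0212), with 2 lower and 3 higher at an unadjusted p under 0.05 (limma). Among 12 genes that supply citrate and NADPH, 4 were lower and 1 higher, including the transhydrogenase NNT (-0.36, adjusted p = 0.00111) and ALDH1L2, a mitochondrial folate enzyme (0.37, adjusted p = 0.0105).

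In the lists of this paragraph 8.33% to 20% of the genes were called, against 11.5% of all genes tested and 21.7% of those averaging 100 or more. None of these lists thus exceeded the share of abundant genes. On the sterol side, 1 of 12 further genes of sterol control and uptake was lower and 0 were higher. It was ERLIN1, an endoplasmic reticulum membrane protein of sterol-regulated degradation (-0.30, adjusted p = 0.00338). Of 18 genes of cholesterol efflux, esterification and trafficking, 2 were lower and 1 higher. SCARB1, the receptor for high-density lipoprotein, fell from 4691 ± 109.3 to 3379 ± 96.0 (SD, n = 3 per group, log2 fold change -0.47, adjusted p = 3.33e-05), and NR1H2, a liver X receptor, fell by 0.34 (adjusted p = 0.0187). OSBP, an oxysterol binding protein, rose by 0.22 (adjusted p = 0.0251). Among 15 genes of isoprenoid use, 2 were higher and 1 lower: PDSS2 (0.27, adjusted p = 0.0383) and DHDDS (0.21, adjusted p = 0.0486), both prenyl chain synthases, and TRIT1, a tRNA prenyltransferase (-0.27, adjusted p = 0.0443). Among 20 sphingolipid genes, 2 were higher and 2 lower. The subunits SPTSSB and SPTLC1 of serine palmitoyltransferase, which uses palmitoyl-CoA, rose by 1.40 (20.8 ± 3.23 to 54.5 ± 4.96, adjusted p = 0.00265) and 0.28 (adjusted p = 0.00413). KDSR, which catalyses the next step, fell by 0.33 (adjusted p = 0.00872).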

How the data were processed

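RNA-seq of PANC-1 cells was analysed for 3 shControl and 3 shZDHHC20 libraries. The authors deposited 1 table with 1 value per gene and library, named as FPKM, a signal that is never negative. Its columns read siZDHHC20 and NC and were assigned to the shZDHHC20 and shControl libraries of equal number. Within 0.01 of a step, 100% of the values in each library were whole multiples of 1 step, as counts scaled by 1 factor per library would be, and no division by gene length was seen. The aligner, counter and annotation are not given in the sources used here, and per the labels the build was hg19. The values were tested as a continuous signal, and no count test was run.

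Names came from the reference gene table (27175 identifiers) and GENCODE 29 on GRCh38 (219), which also gave positions and exon lengths; promoter windows came from RefSeq. Genes with a mean of at least 1 were tested with limma 3.58.1 in R 4.3.3 (log2 of the value plus 0.1, mean-variance trend, two-sided, Benjamini-Hochberg over 22189 genes), and fold changes on that scale understate those of low genes. Python 3.11.15 drew the figures and searched motifs. The depth of a library is known only up to its step, so no counting intervals are given. The members and lists were chosen with earlier results of these data known. Values of every library are given for members called without overlap and for SREBF1, SREBF2, SCAP, INSIG1, HMGCS1, SQLE, ACACA, FASN and SCD, and up to 3 genes were named per list by adjusted p. The libraries given for MVK, PMVK, MVD, LSS and NSDHL, the ratios of paralogues and the promoter windows were chosen after the values were seen. Alternatives were other pseudocounts (0.01 and 1), filters, scalings and moderation, a block for the replicate number, and the removal of single libraries. A GC correction (spline with 4 degrees of freedom) and a fit without trend among genes with a mean of at least 100 were added after the data were seen. The scripts were tested on simulated data. A few single genes are not reported here.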

Additional observations from a re-analysis of the deposited data

How the results depend on the processing

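Over 17 alternatives, the log2 fold change of ZDHHC20 stayed between -1.29 and -1.17, and each of the 13 members called lower kept a negative log2 fold change. Counts of members lower (higher) were 10 (0) with a pseudocount of 0.01, 13 (1) with a mean of at least 10 and with robust moderation, 7 (1) after quantile normalization, 0 (0) without the mean-variance trend and 17 (1) after the GC correction. Sterol enzymes lower were 1 with a pseudocount of 0.01, after quantile normalization and with the replicate block, 0 without the trend and 5 after the GC correction. Fatty acid enzymes lower were 3 after quantile normalization, with a median of -0.18, 0 without the trend and 9 after the GC correction. Genes called over the whole table were 351 without the trend. The cause was not tested. Leaving out each library in turn gave 1036 to 4268 genes called (4268 without shZDHHC20 replicate 2), 5 to 13 members lower, 0 to 2 members higher, 1 to 2 sterol and 3 to 7 fatty acid enzymes lower, and branch medians of -0.11 to -0.0073 (sterol) and -0.24 to -0.16 (fatty acid). Members whose difference was close to 0 changed sign, among them ACACA without shControl replicate 1 (-0.0040), without shZDHHC20 replicate 3 (-0.016) and after the GC correction (-0.0087), HMGCS1 without shZDHHC20 replicate 2 (-0.0087) and after the GC correction (-0.025), and SQLE without shZDHHC20 replicate 2 (0.018). Without 1 library, ACACA ranged from -0.016 to 0.018, HMGCS1 from -0.0087 to 0.043 and SQLE from -0.040 to 0.018.

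The labels number the replicates of both groups 1 to 3 and state no pairing. Deviations of same-numbered libraries from their group means correlated at -0.09, -0.16 and -0.08 over 10908 genes. Deviations from a mean of 3 libraries depend on each other, and shZDHHC20 replicate 2 stood apart. These correlations therefore cannot tell whether same-numbered libraries were paired. No library correlated best with the library of its own number in the other group. With the replicate block, 10 members were lower (IDI1, TM7SF2 and FABP5 lost their call) and 1942 genes were called. Tests on counts, with edgeR or DESeq2, were not run. Depth limits ACSL5 and CD36, whose values were near 0.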
